A study of Mus musculus with 8 samples.

Results

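The genes described here are 7 matrix metalloproteases, Mmp2, Mmp3, Mmp9, Mmp10, Mmp11, Mmp13 and Mmp14, and 3 tissue inhibitors of metalloproteases, Timp1, Timp2 and Timp3. Members were all probe sets that the platform annotation assigns to one of these symbols alone, which gave 22 of the 45037 probe sets analysed and 10 of 18193 genes. No probe set was shared with another gene. Expression had been measured on 8 single-colour Affymetrix arrays of cultured mouse epithelial lines. EpH4 and NMuMG come from the mammary gland, mProx from the proximal renal tubule and MCT from the renal tubule. For each line there is 1 array without stimulation and 1 after 24 h with recombinant TGF-β1 and EGF, each at 3 ng/mL. Resting and stimulated cells alike had first been kept for 24 h in a serum-free basal medium with transferrin and insulin. The labels mark EpH4 as resisting the epithelial-mesenchymal transition (EMT), in which epithelial cells take on a fibroblast-like form, and call the stimulated cells of all 4 lines EMT-induced.

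Matrix metalloproteases are zinc-dependent endopeptidases that cut collagens, laminins, fibronectin and many cell-surface and soluble proteins. They are made as inactive precursors, activated by removal of a propeptide, and inhibited by the TIMPs, which occupy the active site. In epithelia they are best known for remodelling the basement membrane during wound closure, branching, EMT and invasion, and several of their genes respond to growth factors through AP-1 and ETS transcription factors.

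Promoter sequence is shown first for Mmp10, Mmp3 and Mmp13, the secreted proteases that lie together on chromosome 9 and whose probe sets read higher after stimulation in each line (in EpH4 only after normalization for Mmp10 and Mmp3), with Timp1 beside them as the inhibitor that also read higher in each line. For Mmp13 the resting and stimulated intensities were 1.0 and 7.6 in EpH4 and 1.0 and 1.4 in mProx, so those changes lie between very low signals. Each line below holds the 250 bases before the annotated start, 5′ to 3′, from RefSeq on GRCm38.p6, all on the plus strand. Capitals mark TGANTCA, the AP-1 motif, and TATAAA, the TATA box. The windows lie at chr9:7502092-7502341 for Mmp10, chr9:7445572-7445821 for Mmp3, chr9:7272264-7272513 for Mmp13 and chrX:20869916-20870165 for Timp1.
Mmp10: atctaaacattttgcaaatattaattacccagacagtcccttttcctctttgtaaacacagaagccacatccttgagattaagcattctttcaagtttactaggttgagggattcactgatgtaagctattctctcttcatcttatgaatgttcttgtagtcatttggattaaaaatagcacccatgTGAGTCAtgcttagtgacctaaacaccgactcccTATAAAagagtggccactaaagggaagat
Mmp3: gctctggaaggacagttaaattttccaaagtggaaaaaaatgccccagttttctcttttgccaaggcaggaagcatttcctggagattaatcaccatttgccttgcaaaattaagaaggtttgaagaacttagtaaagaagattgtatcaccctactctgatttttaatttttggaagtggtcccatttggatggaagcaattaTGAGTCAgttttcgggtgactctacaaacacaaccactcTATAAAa
Mmp13: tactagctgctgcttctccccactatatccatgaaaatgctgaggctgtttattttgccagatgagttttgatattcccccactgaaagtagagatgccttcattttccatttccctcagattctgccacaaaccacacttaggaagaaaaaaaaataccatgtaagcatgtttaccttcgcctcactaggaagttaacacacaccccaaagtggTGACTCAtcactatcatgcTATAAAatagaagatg
Timp1: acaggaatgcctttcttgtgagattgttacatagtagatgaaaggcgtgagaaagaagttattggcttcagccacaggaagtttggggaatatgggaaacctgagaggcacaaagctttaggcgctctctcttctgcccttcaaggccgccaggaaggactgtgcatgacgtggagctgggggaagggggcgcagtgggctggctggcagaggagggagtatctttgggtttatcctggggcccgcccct

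The RefSeq promoter table held a window for 8 of the 10 genes, all but Mmp2 and Mmp9. Windows of 300 bases, which add 50 bases of transcript, were searched on both strands. TGANTCA was found in the windows of Mmp10, Mmp3 and Mmp13, with its first base 63, 46 and 35 bases before the start. The other 5 windows, of Mmp11, Mmp14, Timp1, Timp2 and Timp3, had no match. This motif is in 7.81% of all 32851 windows. TATAAA was present in the same 3 windows, 29, 7 and 16 bases before the start, against 13.6% of all windows, and both motifs occur together in 1.54%. The GC box GGGCGG was found in the windows of Mmp11, Mmp14, Timp1, Timp2 and Timp3 and in none of the 3 protease windows printed above, against 35.7% overall. The ETS motif AGGAAG was found in 5 of the 8, those of Mmp3, Mmp13, Mmp14, Timp1 and Timp3, against 35.4%. The TGF-β inhibitory element, known from protease promoters, had no match in the 8 windows, and only 1% of all windows had one. These matches describe letters in a short window and not binding.

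Levels below are log2 of the deposited intensity plus 10.6, quantile-normalized across the arrays, and a change is the stimulated level minus the resting level of 1 line. Levels of different probe sets are not on a shared scale, so each gene is compared with itself. A level is called dim below 5.27, the filter that decided which genes were tested, and changes between dim values are not exact. With 1 array per line and condition, a change within a line has no replicate check. Tests treat the lines as replicates and can speak only of the spread between these lines, since nothing in the labels says how many cultures lie behind an array. Limma also moderates each gene's spread with that of all tested genes, so its p-values do not rest on the lines of a single gene alone. The deposited values had array medians between 41.5 and 59.7, and the correlation across genes between both arrays of 1 line was 0.967 to 0.984. Without normalization the median change of all tested genes was -0.28 for EpH4, -0.11 for mProx, -0.25 for MCT and 0.35 for NMuMG, so signs of small changes depend on the scaling.

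Marker genes separated the lines. All 10 epithelial markers were above the dim level in EpH4, 7 in MCT, 6 in NMuMG and 3 in mProx. E-cadherin (Cdh1) was high in EpH4, at 11.84 at rest, and in NMuMG, at 10.69, and dim in mProx, at 3.53, and MCT, at 3.87. Vimentin (Vim), a mesenchymal filament, was dim in EpH4, at 4.02 at rest and 4.19 after stimulation, and at least 13.20 on the arrays of the other 3 lines. Pax8 was high in both kidney lines, with 10.90 in resting mProx and 9.66 in resting MCT, as was Cdh16, with 12.23 and 10.80. Aqp1, a water channel of the proximal tubule, read 12.84 in resting mProx and 5.07 in resting MCT. The other listed tubule markers did not mark mProx. Cubn, Lrp2, Slc34a1 and Hnf4a read 5.69, 5.96, 5.26 and 5.29 in resting mProx, for each the lowest of the resting lines. Umod was dim on every array, and Lhx1 was dim at rest in every line. The milk gene Csn2 lay between 4.04 and 5.45 on every array. Another milk gene, Csn3, went against the labels, with 9.43 and 10.63 in the kidney line MCT and 5.23 and 8.89 in mProx, against at most 5.46 in the mammary lines. Krt7 went with the labels, at 12.91 and 13.03 in EpH4 and 7.32 and 7.71 in NMuMG, against at most 6.76 in the kidney lines. Krt14 read 10.22 and 11.09 in EpH4 and was dim in the other lines, NMuMG among them. The remaining mammary markers on the array read at most 6.91.

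Across the 10 genes, 9 of 40 changes in single lines were at least 2-fold upward and 2 were at least 2-fold downward, and 7 genes had at least 1 such change. In MCT 4 of the 9 tested genes were at least 2-fold higher, Mmp10, Mmp9, Mmp3 and Timp1, against 2.76% of all 12640 tested genes. In mProx 2 were, Mmp10 and Mmp2, against 2.77%, in NMuMG 1, Mmp10, against 3.01%, and in EpH4 1, Mmp9, against 1.32%. Timp3 was at least 2-fold lower in mProx, where 2.49% of tested genes were, and Mmp9 in NMuMG, where 1.99% were. None of the 9 was that much lower in EpH4 or MCT, where 1.04% and 2.73% of tested genes were. At least 1 change of 2-fold in any line was found in 6 of the 9 and in 14.1% of tested genes. Mmp10 and Mmp3 reached the test only through their stimulated levels, with resting means of 4.47 and 5.02, and Mmp9 only through EpH4, with a mean of 5.20 over the other 3 lines. Counts that include them, and the ranks and p-values of these genes, are descriptions and no support for a response, here and below.

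**Figure D1:**
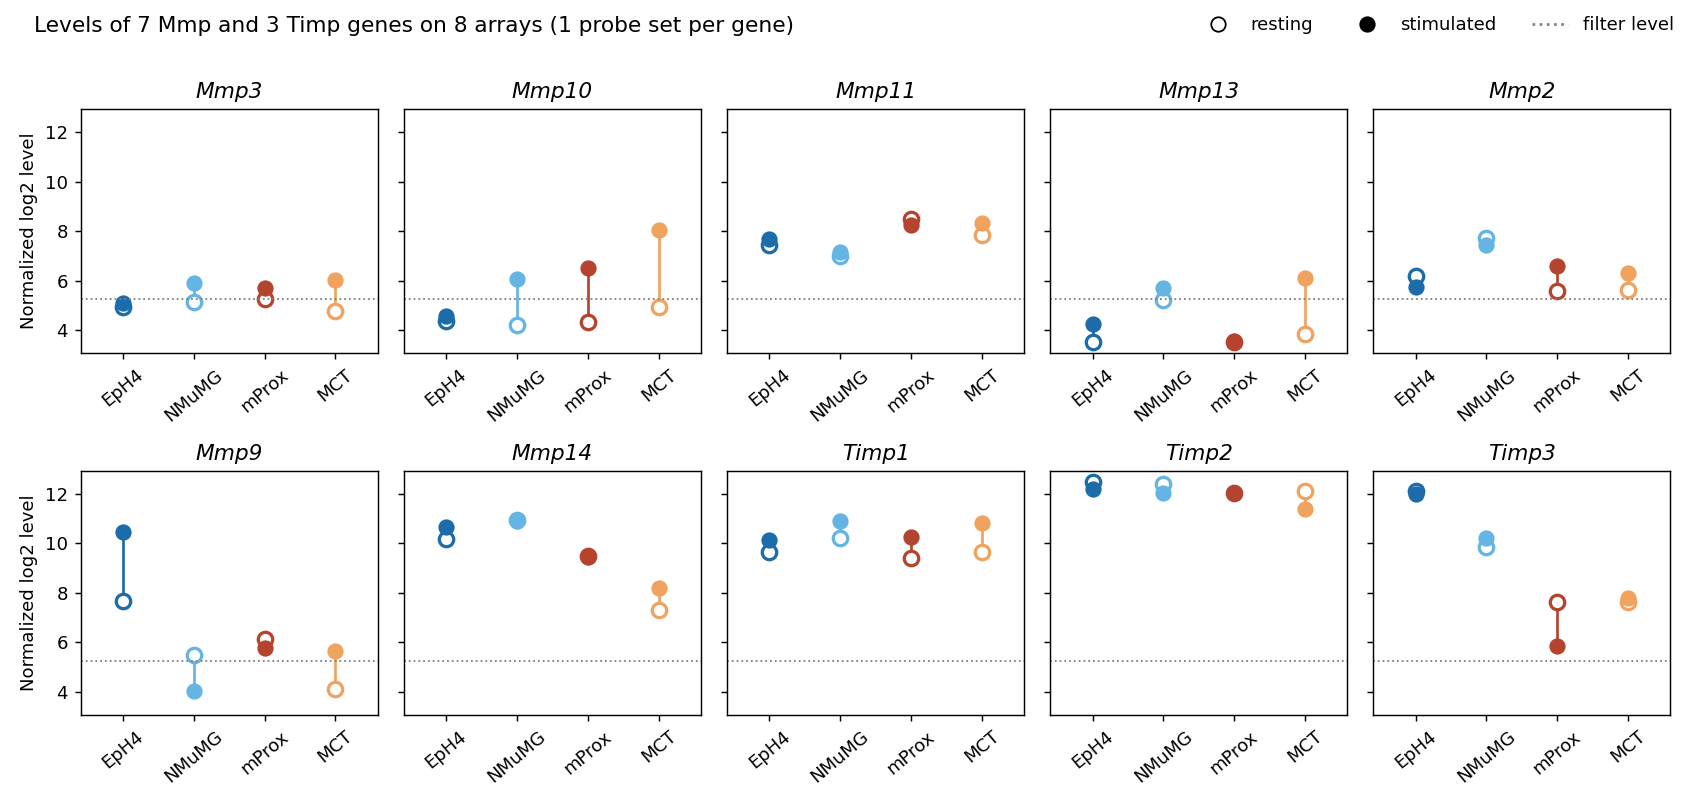
Normalized log2 level (vertical axis) of 1 probe set for each of the 10 genes in the 4 lines (horizontal axis), with open circles for resting and filled circles for stimulated cells, 1 array each, joined by a line. The dotted line is the dim level of 5.27. Mmp10 separates in mProx, MCT and NMuMG and not in EpH4, and Mmp9 separates most in EpH4.

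In limma's test of the response over the 4 lines, 0 of the 9 tested genes passed an adjusted p of 0.05, as did 0% of all 12640. At an unadjusted p under 0.05 there were 1469 of all tested genes or 11.6%, 6.26% higher and 5.36% lower. Of the 7 members whose resting mean alone reaches the filter, Timp1 was on the higher side and Timp2 on the lower side. This is by the probe set used for each gene, and Mmp14 was below that p, on the higher side, on its probe set 1416572_at only. Mmp10 and Mmp3, which the filter admitted through their stimulated levels, were also on the higher side and are not counted against that share. Mmp10, Mmp3 and Timp1 were higher in each of the 4 lines, as were 10.3% of tested genes, although without normalization the EpH4 change was 0.00 for Mmp10 and -0.08 for Mmp3, and none of the 9 was lower in each line, against 9.25%. Both counts depend on the probe set chosen. Timp2 had 0.02 in mProx on the probe set used, and its other 4 that reached the filter were lower in each line. The other 2 Mmp14 probe sets were higher in each line. In the 3 lines other than EpH4, 16 genes or 0.127% passed the threshold and none of them was a member. Timp1, Timp2, Mmp10 and Mmp3 had an unadjusted p under 0.05 there too, with the same limit for Mmp10 and Mmp3. Of all genes 12.6% did, 6.46% higher and 6.12% lower. This second test shares its 6 arrays with the first.

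Among the stromelysins, Mmp10 (stromelysin-2, probe set 1420450_at), which cuts proteoglycans, laminin and fibronectin and activates other proteases, read 4.36 at rest and 4.57 after stimulation in EpH4. In mProx it went from 4.34 to 6.49, in MCT from 4.93 to 8.03 and in NMuMG from 4.23 to 6.08. On the deposited scale these were intensities of 11.9 before and 11.9 after for EpH4, 11.3 and 84.1 for mProx, 19.2 and 209.1 for MCT, and 6.9 and 55.7 for NMuMG. The gene was dim at rest everywhere and clear of the dim level after stimulation in every line but EpH4, whose stimulated level lay within the resting range. EpH4 had a change of 0.21, mProx 2.15, MCT 3.10 and NMuMG 1.85, and by size these ranked 2408, 31, 16 and 53 among the 12640 tested genes. Since every resting level was dim, sizes and ranks depend on the offset: with an offset of 50 the ranks were 4195, 105, 27 and 203, and the 4-line mean given next ran from 1.05 with that offset to 2.39 with an offset of 1. Only 21 genes, or 0.166%, were at least 2-fold higher in each of mProx, MCT and NMuMG, and Mmp10 was 1 of them. The filter admitted Mmp10 through its stimulated levels, so its ranks, this share and the p-values that follow are descriptions. Over the 4 lines the mean change was 1.83 ± 1.20 (SD, n = 4; limma SE 0.43, adjusted p = 0.207, or 3.64e-05 without normalization), and over the 3 lines without EpH4 it was 2.37 ± 0.65 (SD, n = 3; limma SE 0.32, adjusted p = 0.0544). The latter passed without normalization, with limma's adjusted p of 1.05e-07, and with arrays shifted to 1 median, at 0.0168. Without normalization limma's smallest adjusted p of any gene in this 3-line test was 7.61e-30, from 6 arrays. Values that small, like the unnormalized ones of Mmp10, are not a measure of the spread of 1 gene between lines. The difference of the EpH4 change from that of the other lines was -2.15 (SE 0.68), with a limma p of 0.0153 before adjustment and 1.00 after it.

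Mmp3 (stromelysin-1, 1418945_at), a close relative of Mmp10 with a similar range of matrix substrates, read 4.93 and 5.09 in EpH4 and 5.25 and 5.71 in mProx. In MCT it went from 4.77 to 6.04 and in NMuMG from 5.15 to 5.92. All resting levels and the stimulated level of EpH4 were dim, and the stimulated levels of the other 3 lines lay above every resting level. The changes were 0.16, 0.46, 1.27 and 0.77 in the same order, with a mean of 0.67 ± 0.47 (SD, n = 4; limma SE 0.26, adjusted p = 0.389). MCT had the largest change of both Mmp3 and Mmp10, and EpH4 the smallest.

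Mmp11 (stromelysin-3, 1417234_at), which unlike most secreted members is activated inside the cell by furin, read 7.43 and 7.67 in EpH4, 8.50 and 8.25 in mProx, 7.85 and 8.35 in MCT, and 6.99 and 7.15 in NMuMG. Resting and stimulated levels overlapped, and the lines stood in the order mProx, MCT, EpH4 and NMuMG at rest. The mean change was 0.16 ± 0.31 (SD, n = 4; limma SE 0.16, adjusted p = 0.725), with mProx at -0.25 against 0.16 to 0.50 in the other lines. The EpH4 change of 0.23 became -0.04 without normalization.

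Mmp13 (collagenase-3, 1417256_at), which cuts fibrillar collagen, had a mean level under the filter and was not tested. Its levels were 3.52 and 4.24 in EpH4, 3.52 and 3.57 in mProx, 3.83 and 6.11 in MCT, and 5.20 and 5.69 in NMuMG. Only stimulated MCT and stimulated NMuMG were above the dim level. The MCT intensity went from 3.4 to 49.0, a change of 2.28, and the changes were 0.72, 0.05 and 0.49 in EpH4, mProx and NMuMG.

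On chromosome 9 the annotation places 10 Mmp genes in 1 cluster, in the order Mmp13, Mmp12, Mmp1b, Mmp3, Mmp1a, Mmp10, Mmp8, Mmp27, Mmp20 and Mmp7, with 3 non-coding genes or pseudogenes among them. Mmp27 was not analysed here. In MCT the neighbours Mmp12, the macrophage elastase, and Mmp7, matrilysin, also read higher, with Mmp12 going from 3.76 to 6.70 and Mmp7 from 4.99 to 6.21. The MCT changes were 3.10 for Mmp10, 2.93 for Mmp12, 2.28 for Mmp13, 1.27 for Mmp3 and 1.22 for Mmp7. Mmp1b, at 0.89, Mmp1a, at -0.35, and Mmp20, at -0.95, were dim on both MCT arrays, and Mmp8 had a change of 0.24. In mProx and NMuMG the corresponding changes of Mmp12 were -0.22 and 0.82 and those of Mmp7 0.12 and 0.18, so that of these neighbours Mmp10 alone was at least 2-fold higher and above the dim level after stimulation in each of the 3 lines. The AP-1 motif is also in a window of Mmp12, Mmp1b, Mmp1a, Mmp20 and Mmp7, among them genes that stayed dim. These neighbours were named for their place, and of those outside the 10 genes only Mmp7 was tested.

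**Figure D2:**
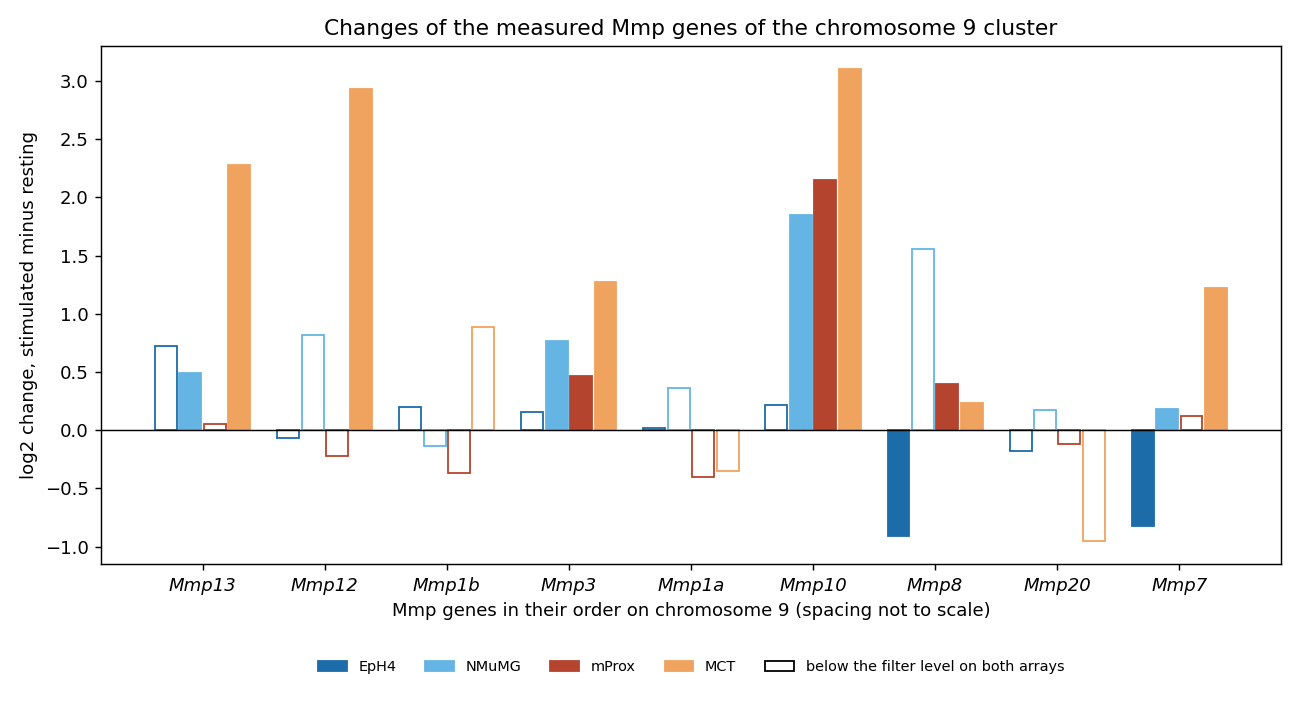
Log2 change (vertical axis) in each of the 4 lines for the 9 measured Mmp genes of the cluster, in chromosome order (horizontal axis, not to scale), with 1 array per condition and therefore no error bars. Open bars are dim on both arrays. The MCT bars of Mmp13, Mmp12, Mmp3, Mmp10 and Mmp7 are filled and above 1.

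Among the gelatinases, which cut denatured collagen and basement membrane collagen, Mmp9 (gelatinase B, 1416298_at) went from 7.68 to 10.47 in EpH4, or from an intensity of 251.9 to 1559.3. It read 6.14 and 5.79 in mProx, 4.10 and 5.66 in MCT, and 5.47 and 4.02 in NMuMG. EpH4 had the highest level both at rest and after stimulation, and the other lines lay between 4.02 and 6.14. The EpH4 change of 2.79, or 6.89-fold, was the largest upward change of the 12640 tested genes in that line. This change also ranked 1 without normalization and with an offset of 50, and 11 with an offset of 1. The ranks are descriptions, since Mmp9 entered the tested genes only through EpH4. The changes in mProx, MCT and NMuMG were -0.34, 1.55 and -1.44, and a change of at least 2-fold upward in 1 line and downward in another was found in 0.87% of tested genes. A second Mmp9 probe set, 1448291_at, went from 6.68 to 10.06 in EpH4 and was dim on all 6 arrays of the other lines, with an MCT change of -0.26, so the MCT and NMuMG changes rest on 1 probe set.

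The EpH4 change of Mmp9 exceeded the mean of the other 3 lines by 2.86 (limma SE 1.03), with an unadjusted p of 0.0273 and an adjusted p of 1.00 by limma. An unadjusted p under 0.05 in this comparison was found for 3.43% of all genes, and 0% passed after adjustment. Mmp9 and Mmp10 are the members below that p, and no count is set against this share, since the filter admitted each through the arrays where it is high. Since EpH4 is 1 line, its own spread is unknown and was taken from the others. At rest the EpH4 level of Mmp9 was 2.44 above the mean of the other lines (limma SE 0.90, adjusted p = 0.550). Leukocytes also make Mmp9, and 5 to 8 of 12 leukocyte markers were above the dim level on each array. Their summed intensity was 411.3 to 2512.5 on resting and 473.5 to 607.1 on stimulated arrays, with 687.9 and 599.2 in EpH4. No marker was listed at 0, and the highest sum, in resting mProx, held Csf1r at 10.91. In resting and stimulated EpH4, Cd68 was 7.25 and 7.11, Csf1r 7.22 and 7.64, Lyz2 6.32 and 6.33, and Adgre1 5.87 and 6.67. There Ptprc was 4.42 and 4.83, S100a8 3.82 and 4.64, S100a9 5.14 and 3.95, and Mpo 4.78 and 3.84. The part of such cells in the Mmp9 values was not tested.

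Mmp2 (gelatinase A, 1416136_at), which Mmp14 activates at the cell surface together with Timp2, read 6.17 and 5.74 in EpH4 and 7.74 and 7.43 in NMuMG. In mProx it went from 5.56 to 6.61 and in MCT from 5.64 to 6.29. Both kidney lines were higher after stimulation and both mammary lines lower, a pattern of 4.68% of tested genes, and NMuMG had the highest level in both states. Without normalization the NMuMG change was only -0.04, with intensities of 147.2 at rest and 142.4 after stimulation. The changes of -0.43, -0.31, 1.05 and 0.66 gave a kidney minus mammary difference of 1.22 (limma SE 0.38, unadjusted p = 0.0134, adjusted p = 0.742). On the second probe set, 1439364_a_at, the difference was 0.35 (limma SE 0.85, unadjusted p = 0.693). Mmp2 was the 1 member of 9 with an unadjusted p under 0.05 in that comparison, on its first probe set only, against 5.91% of genes, and 0% passed after adjustment. The second probe set disagreed in MCT, with -1.36, and in EpH4, with 0.15, and agreed in mProx, with 1.42, and NMuMG, with -0.78. It was dim on both arrays of EpH4 and of MCT and in resting mProx, so its changes in those lines are not exact. Without normalization its EpH4 change was -0.05. The mProx increase is thus the change shared by both probe sets of Mmp2 that was at least 2-fold.

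Mmp14 (1448383_at), the membrane-anchored MT1-MMP, read 10.16 and 10.68 in EpH4, 9.49 and 9.47 in mProx, 7.30 and 8.22 in MCT, and 10.95 and 10.89 in NMuMG. MCT had the lowest level in both states, and the resting and stimulated ranges overlapped. The mean change was 0.34 ± 0.47 (SD, n = 4; limma SE 0.17, adjusted p = 0.493). The other 2 probe sets were higher in each of the 4 lines, by 0.22 to 0.75 and by 0.14 to 0.36 (the latter -0.05 in MCT without normalization), while the probe set used here was near 0 in mProx, at -0.02, and NMuMG, at -0.06. With every probe set tested, the 4-line mean was 0.45 on 1416572_at (limma unadjusted p = 0.00851, adjusted p = 0.308). On 1440920_at it was 0.21 (limma unadjusted p = 0.150, adjusted p = 0.592). Without normalization the NMuMG change of the probe set used was 0.31, so its sign there depends on the scaling. The resting difference of kidney minus mammary lines was -2.16 (limma SE 0.81, unadjusted p = 0.0440, adjusted p = 0.663). With every probe set tested, it was -1.89 on 1416572_at (limma unadjusted p = 0.0689) and -1.14 on 1440920_at (limma unadjusted p = 0.130).

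Of the inhibitors, Timp1 (1460227_at), which blocks most secreted metalloproteases and also has growth-promoting activity, read 9.64 and 10.13 in EpH4, 9.41 and 10.24 in mProx, 9.65 and 10.82 in MCT, and 10.22 and 10.90 in NMuMG. The deposited intensities went from 1063.7 to 1233.7, from 784.0 to 1257.7, from 797.8 to 1539.3 and from 837.5 to 1807.6 in the same order. Each line was higher after stimulation, although stimulated EpH4 lay just below resting NMuMG. The changes of 0.50, 0.83, 1.17 and 0.68 gave a mean of 0.80 ± 0.28 (SD, n = 4; limma SE 0.12), or 1.74-fold. Limma's unadjusted p was 0.00018 and its adjusted p 0.0883, and over the 3 lines without EpH4 the mean was 0.90 ± 0.25 (SD, n = 3; limma adjusted p = 0.0599). Timp1 passed the threshold without normalization, at an adjusted p of 0.0302 over the 4 lines by limma, and with arrays shifted to 1 median, at 0.0463. The unnormalized value has the limit given for Mmp10. The EpH4 change differed from the mean of the other lines by -0.40 (limma SE 0.27, adjusted p = 1.00).

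Timp2 (1460287_at), an inhibitor that also helps Mmp14 to activate Mmp2, read 12.49 and 12.19 in EpH4, 12.03 and 12.06 in mProx, 12.11 and 11.40 in MCT, and 12.40 and 12.05 in NMuMG. MCT had the largest decrease and the lowest stimulated level, and the mProx arrays were nearly equal on this probe set. The mean change was -0.33 ± 0.30 (SD, n = 4; limma SE 0.11, unadjusted p = 0.0162, adjusted p = 0.313). Timp2 has 6 probe sets, of which 1, 1437081_at, was dim on 6 of 8 arrays. As normalized, the other 4 were lower in each line, with MCT changes from -0.83 to -0.42, mProx changes from -0.62 to -0.13 and mean changes from -0.43 to -0.34. Without normalization the NMuMG change was close to 0 on all 5 clear probe sets, from -0.08 to 0.07, while MCT lay between -1.07 and -0.61.

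Timp3 (1449335_at), which binds to the matrix and also inhibits ADAM proteases, differed mainly between lines. It read 12.11 and 12.00 in EpH4, 9.84 and 10.22 in NMuMG, 7.63 and 7.79 in MCT, and 7.63 and 5.86 in mProx. EpH4 was the highest line and NMuMG the next in both states, the kidney lines were level at rest, and mProx was the lowest after stimulation. The resting difference of kidney minus mammary lines was -3.34 (limma SE 0.80), that is 10.1-fold lower, with an unadjusted p of 0.00847 and an adjusted p of 0.454. Resting EpH4 was 3.74 above the other 3 lines (limma SE 1.03, adjusted p = 0.454). In mProx the change was -1.77, or from an intensity of 230.3 to 49.4, and its other 3 probe sets were also lower there, by -0.71 to -1.12. MCT changes were 0.16 to 0.36 and NMuMG changes 0.35 to 0.49 over the 4 probe sets, and EpH4 changes -0.26 to -0.07. The MCT sign turned to -0.13 without normalization on the probe set used. The kidney minus mammary difference in response was -0.94 (limma SE 0.56, adjusted p = 0.932), and on the other 3 probe sets -0.32 to -0.49. Leaving out 1 kidney line leaves that tissue a single line: without mProx the difference was 0.0212, and without MCT -1.91 (limma adjusted p = 0.0334).

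**Figure D3:**
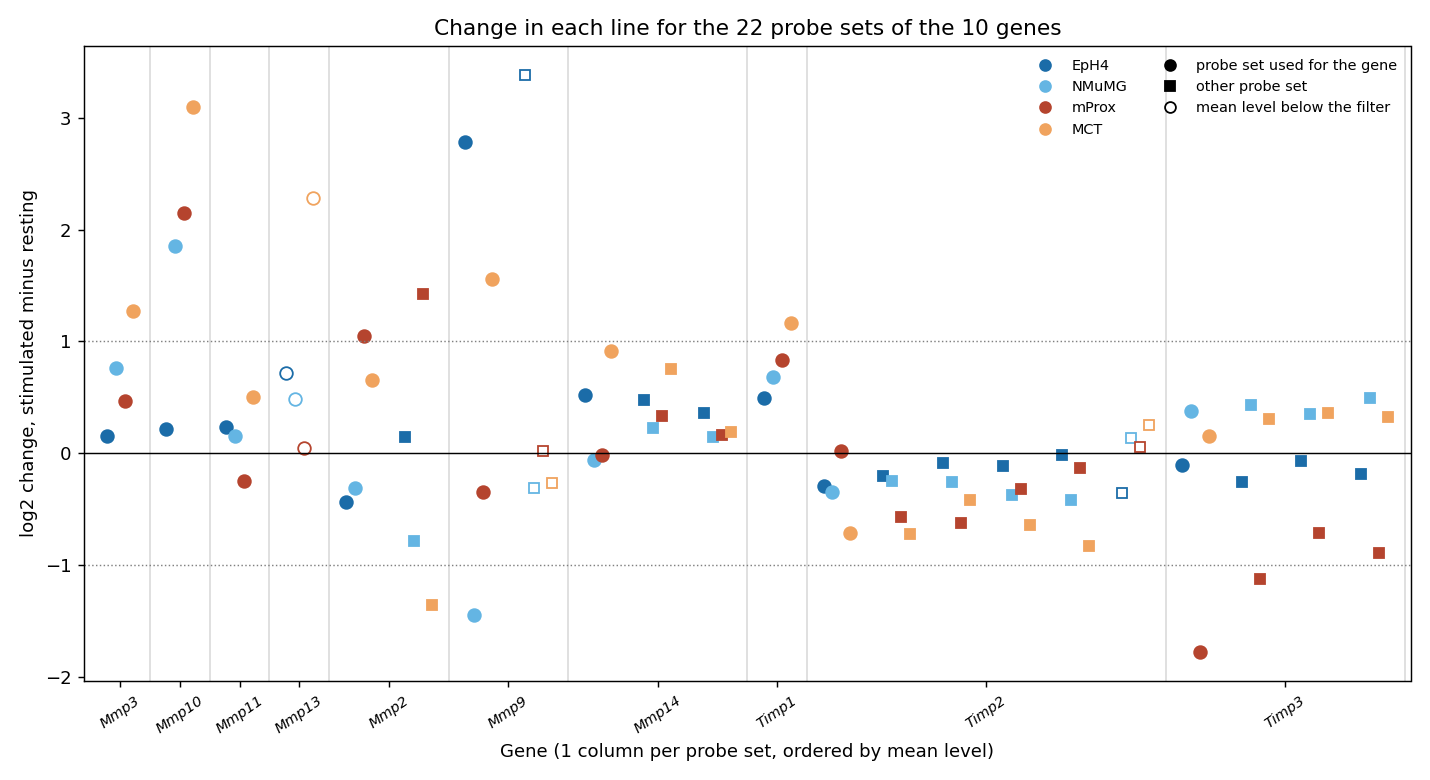
Log2 change (vertical axis) in the 4 lines for all 22 probe sets of the 10 genes (horizontal axis, 1 column per probe set), 1 array per condition and no error bars. Circles are the probe set used for the gene, squares the others, and open symbols have a mean level below 5.27. On all 4 Timp3 probe sets mProx has the lowest change, while the 2 Mmp2 probe sets lie apart in MCT, where 1439364_a_at is dim on both arrays.

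At rest, 4 of the 9 tested genes had levels at least 4-fold apart between the lowest and highest line, against 19.3% of all tested genes. They were Timp3 (a log2 range of 4.48), Mmp14 (3.65), Mmp9 (3.58) and Mmp2 (2.18). Timp1, Timp2, Mmp3 and Mmp10 varied by at most 0.81, and for Mmp3 and Mmp10 all resting levels were dim. In the kidney against mammary comparison of resting cells 2 of 9 members, Timp3 and Mmp14, had an unadjusted p under 0.05, against 7.32% of genes, and 0% passed after adjustment. For Mmp14 this held on the probe set used and not on its other probe sets. In the comparison of resting EpH4 with the other lines 8.91% of genes had an unadjusted p under 0.05, and 1 gene or 0.00791%, not a member, passed. Timp3 was below that p, and so was Mmp9, which the filter admitted through EpH4.

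**Figure D4:**
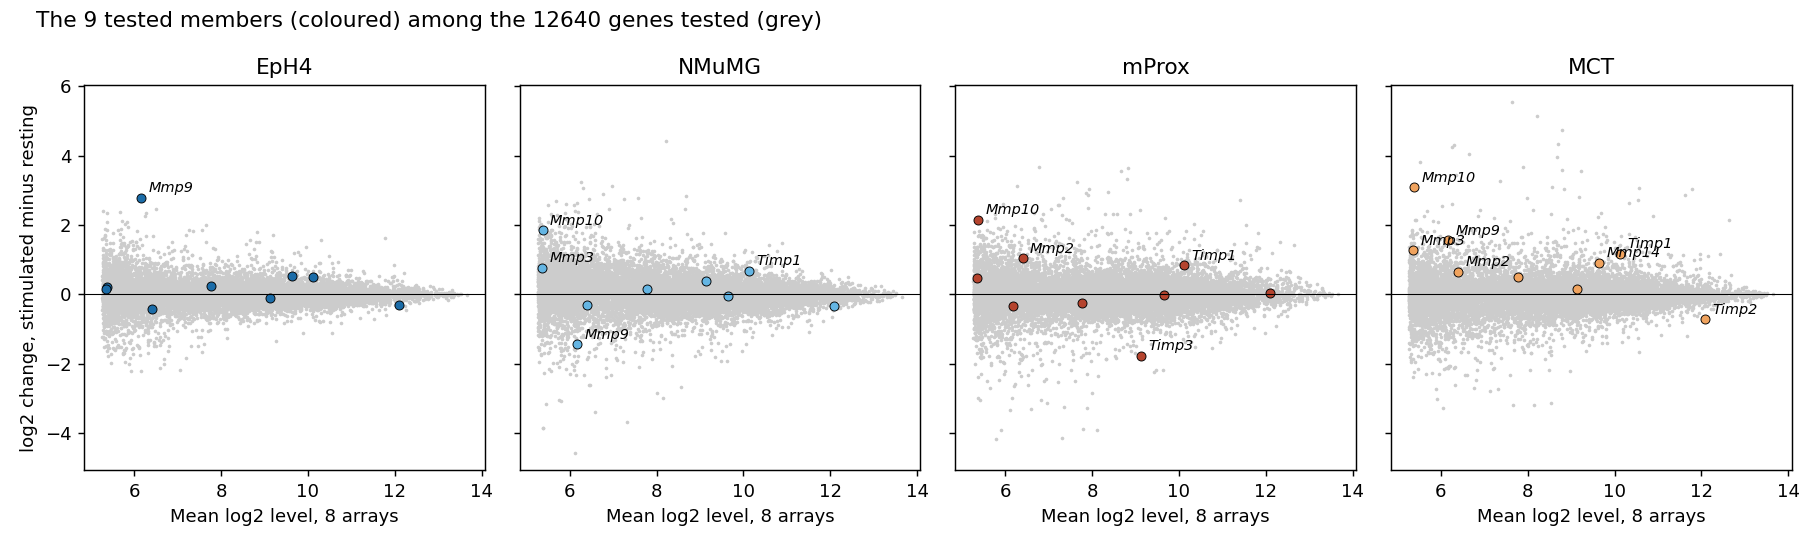
Log2 change (vertical axis) against mean log2 level over the 8 arrays (horizontal axis) in each line, with grey points for the 12640 tested genes and coloured points for the 9 tested members. Mmp9 is the highest point in EpH4, at 2.79, and Mmp10 lies near the upper edge in the other 3 lines. The filter admitted both through the arrays where they are high.

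The tested gene whose levels over the 8 arrays were closest to those of Mmp10, by the root mean square difference of gene-centred log2 levels, was St8sia2, a sialyltransferase, at 0.64. Prkg2, a cGMP-dependent kinase, followed at 0.64 and Etv4, an ETS factor, at 0.66, against a standard deviation of 1.37 for Mmp10 itself. For Mmp9 the nearest were Sfn (0.71), Klk8 (0.77) and Apobec1 (0.80), and Sfn, an epithelial adaptor of the 14-3-3 family, had an EpH4 change of 2.25. For Timp1 they were the hyaluronan receptor gene Cd44 (0.20), Cttnbp2nl (0.21) and the ETS factor gene Elk3 (0.22). For Timp3 they were Fgf13 (0.67), Gm41724 (0.72) and Wnt7a (0.74). Mmp14 had Cgref1 (0.24), Btg2 (0.39) and Tfb2m (0.42), and Mmp2 had Samd4 (0.24), Ldah (0.27) and Crip2 (0.27). Genes with a small spread of their own had nearer neighbours, namely Rtbdn (0.20), Ctxn1 (0.21) and Arhgap22 (0.21) for Mmp3, Gba2, Dip2a and Gins3 (each 0.13) for Mmp11, and Mipep (0.11), Cav1 (0.12) and Cybb (0.12) for Timp2. Such nearness was searched over all tested genes and 8 arrays, and no member was among the 3 nearest genes of another member.

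Of 17 other family genes listed, 12 were on the array with a symbol of their own and 6 passed the filter. None of the 6, Mmp7, Mmp16, Mmp17, Mmp19, Mmp23 and Mmp24, had an adjusted or unadjusted p under 0.05 in either response. Mmp23 was lower in EpH4 (-1.05), mProx (-1.69) and NMuMG (-1.32) and higher in MCT (1.00). It was dim in stimulated mProx (4.25), stimulated NMuMG (4.28) and resting MCT (4.82), so those changes are not exact. Mmp17 had -1.15 in EpH4, where its stimulated level of 5.12 was dim, against 0.32 to 0.81 elsewhere. The changes of Mmp16, Mmp19 and Mmp24 lay between -0.80 and 0.44.

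The genes around the proteases gave 0 adjusted calls in either response. Over all tested genes 6.26% were higher and 5.36% lower at an unadjusted p under 0.05 over the 4 lines, with a median change of 0.01, which stand beside each count that follows. Of 13 tested activators and regulators, 4 were higher and 1 lower at that p, with a median change of 0.16. Adam12, a membrane-anchored metalloprotease, was at least 2-fold higher in each line and dim in resting mProx, with a mean of 1.79 ± 0.74 (SD, n = 4; limma adjusted p = 0.0883). Plau, the urokinase that starts the plasmin cascade and was dim at rest in all lines but EpH4, had 0.83 ± 0.42 (SD, n = 4; limma adjusted p = 0.261). Of 15 tested matrix substrates, 5 were higher and 0 lower at that p, with a median of 0.00. Collagen Col1a1, dim at rest in mProx and MCT, had 1.42 ± 0.58 (SD, n = 4; limma adjusted p = 0.133). Tenascin (Tnc), with 3.59 in MCT and -0.88 in mProx, and fibronectin (Fn1), with 2.14 in MCT and 0.11 in NMuMG, varied more between lines. Of 14 AP-1 and ETS factors, 5 were higher and 0 lower at that p, with a median of 0.21, against the same 6.26% and 5.36%. Etv5 had 1.75 ± 0.79 and Etv4 1.63 ± 0.97 (SD, n = 4), with limma adjusted p of 0.0883 and 0.135. These lists were drawn up with results of these arrays known.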

How the data were processed

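Levels of mouse Mmp and Timp genes were read from 8 single-colour arrays, 4 resting and 4 stimulated. The deposited values are intensities on a linear scale, made with MAS5 per the submitters' processing notes; its version, its scaling target and the genome build of the array's annotation were not given in the sources used here. The 64 control probe sets were left out of 45101. To the deposited intensity 10.6, the 25th percentile of positive signals, was added before log2, which understates changes of dim genes, and log2 values were quantile-normalized, because array medians differed by 0.43. Quantile normalization removes any overall shift between states. Each gene was represented by its probe set of highest mean level, avoiding those marked as cross-hybridising, and 12640 genes whose mean reached the 40th percentile, 5.27, entered linear models in R 4.3.3 with limma 3.58.1 (lmFit, eBayes with an intensity trend), with the line as a block and Benjamini-Hochberg adjustment over all tested genes. The number of arrays limits the precision.

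Lines pair the arrays: the 2 arrays of a line deviated together from their group means, at correlations of 0.906, 0.828, 0.813 and 0.876. Comparisons were the response in 4 and in 3 lines, its difference between EpH4 and the rest and between tissues, and both contrasts of resting lines. The members and lists were chosen with earlier results of these data known. All members were named, with up to 6 genes of each related list that passed or were changed at least 2-fold in 2 lines, the tested family genes, and the 3 nearest genes of each member. Alternatives were other scalings, offsets of 1 and 50, no filter, no trend, no block, every probe set, and leaving out each line. The fits were tested on simulated data. Symbols came from the platform annotation and promoter windows from RefSeq.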

Additional observations from a re-analysis of the deposited data

How the results depend on the processing

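No member passed the threshold in the 6 comparisons as reported. Counts of all genes past it depended on the scaling, and those without normalization have the limit given for the p-values of Mmp10. The response of the 4 lines gave 0 genes, but 236 without normalization between arrays, 25 with arrays shifted to 1 median, 1 with an offset of 1 and 8 with an offset of 50. The response of the 3 lines without EpH4 gave 16, but 211 without normalization, 92 with shifted arrays, and 0 with no filter, with no intensity trend and with no replicate block. Without the replicate block, that is without pairing the 2 arrays of a line, the 4-line response also gave 0. Without normalization the counts were 4 for EpH4 against the other lines, 19 for kidney against mammary responses, 6 for resting kidney against mammary lines and 12 for resting EpH4. The last gave 1 gene as reported, 0 with no intensity trend and 3 with every probe set tested. Leaving out each line in turn gave 0 to 16 genes for the 4 lines, 16 without EpH4. It gave 8 (without mProx) to 73 (without NMuMG) for the 3 lines, 0 to 57 (without MCT) for kidney against mammary responses and 0 to 0 for resting EpH4.

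Member genes passed in 10 settings, all for Mmp10, Timp1 or Timp3. In the 3-line response Mmp10 also passed with an offset of 1, at an adjusted p of 0.0487 by limma, and without NMuMG, at 0.0268. Without normalization these differences turned sign. For EpH4 against the other lines they were Mmp11 at -0.081, Mmp14 at -0.0295 and Timp2 at -0.14. For kidney against mammary responses it was Mmp14, at -0.0345. For resting kidney against mammary lines it was Mmp3, at 0.0211, and for resting EpH4 they were Mmp2 at 0.18, Mmp3 at 0.0704 and Timp1 at 0.40. Resting EpH4 Timp1 was 0.17 with shifted arrays. With an offset of 1, Mmp13 was 0.80 for EpH4 against the other lines, and Mmp9 0.78 for kidney against mammary responses. The cause was not tested.

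Leaving out 1 line turned the sign of 24 differences. In the 4-line response these ranged for Mmp9 from -0.0779 to 1.33, for Mmp2 from -0.0291 to 0.46 and for Timp3 from -0.58 to 0.14. In the 3-line response they ranged for Mmp9 from -0.89 to 0.61, for Timp3 from -0.81 to 0.27, for Mmp11 from -0.0458 to 0.33 and for Mmp14 from -0.0384 to 0.45. For EpH4 against the other lines Mmp11 ranged from -0.0931 to 0.28, Timp3 from -0.37 to 0.70, Mmp13 from -0.66 to 0.45 and Timp2 from -0.13 to 0.23. For kidney against mammary responses Mmp9 ranged from -2.18 to 2.05, Timp2 from -0.39 to 0.34, Mmp11 from -0.44 to 0.30, Timp3 from -1.91 to 0.0212, Mmp13 from -0.56 to 1.67 and Mmp14 from -0.25 to 0.69. At rest, kidney against mammary, Mmp3 ranged from -0.27 to 0.21 and Mmp13 from -1.53 to 0.16. For resting EpH4 Mmp11 ranged from -0.74 to 0.0101, Mmp10 from -0.28 to 0.076, Mmp14 from -0.0596 to 1.77, Mmp2 from -0.52 to 0.57 and Timp1 from -0.30 to 0.11.

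Of the 40 single-line changes of the probe sets used, 35 kept their sign under all 5 scalings and offsets. Mmp10 and Mmp3 are bounded below by dim resting signals. Where 1 line stands alone it is assumed to vary like the others.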
